A study of Mus musculus with 2 samples.

Results

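The genes described here encode the cytosolic translation initiation factors (eIF) and elongation factors (eEF) of the mouse, with their inhibitors, exchange factor and modifying enzymes. They were chosen by a rule on names, set with earlier results of these data known. The rule took all genes whose symbol begins with Eif and a digit, or with Eef1 or Eef2, leaving out the Eif2ak kinases. Each had to be measured by a probe set that names no other gene. This gave 57 genes of the 19935 measured. RNA came from 2 cultures of Ba/F3 cells, a pro-B-like line of mouse origin that needs interleukin-3 (IL-3) to live, made to express BCR-ABL constitutively. BCR-ABL, a constitutively active tyrosine kinase known from chronic myeloid leukaemia, replaces that need. Both cultures received imatinib, an ABL kinase inhibitor, at 5 µM for 6 h in RPMI medium with 10% fetal bovine serum, and both samples are titled as live cells; they differ in that 1 was grown with IL-3 and 1 without. Per the submitters, cells without IL-3 die from the drug and cells with IL-3 resist it. The sources used here do not say whether the cells were 1 clone or what promoter drove BCR-ABL. The sample titled with IL-3 also carries a description that says it was grown without IL-3, and the other sample's source name could be taken to mean without imatinib; the titles were followed.

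Translation of most mRNAs begins when eIF4E binds the cap and, with the scaffold eIF4G and the helicase eIF4A, brings the small ribosomal subunit, which carries eIF3 and the initiator tRNA held by eIF2, to the mRNA. The exchange factor eIF2B reloads eIF2 with GTP, and stress kinases slow initiation by phosphorylating eIF2 so that it blocks eIF2B. Elongation runs on eEF1A, which delivers aminoacyl-tRNA, eEF2, which moves the ribosome, and eIF5A, which helps at difficult peptide bonds. Growth signals act on this machinery through mTORC1, which holds the eIF4E inhibitors (4E-BPs) and the eEF2 kinase in check, and through MYC, which is known to raise transcription of several factor genes.

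Each condition had 1 mouse Gene 1.0 ST array, so every difference compares 2 arrays without replicate error, and no test was possible. The values are log values, taken as log2, relative to a baseline that differs by probe set; they carry no expression level, and genes are compared only by the difference between arrays, taken as the array with IL-3 minus the other. The median value was -0.03 on the array with IL-3 and -0.05 on the other, and the arrays correlated across probe sets at r = 0.77, a description across probe sets of 2 arrays. Probe sets of the same gene differed with a pooled SD of 0.14 over the 998 genes that had more than 1. The SD was 0.29 over the 8 such translation factor genes. Both describe disagreement between probe sets on the same 2 arrays and hold no replicate error of arrays or cultures. Because levels are lost, the B-lineage identity of the cells could not be checked against its markers. Of the 12 B-lineage markers measured, 7 were higher with IL-3 and the median difference was 0.06. Of the 11 markers of mast cells and basophils 7 were lower with IL-3, 4 at least 1.5-fold and 3 at least 2-fold, with differences down to -2.46 and a median of -0.21. Of the 9 granulocyte markers 6 were lower, 4 of them at least 2-fold, with differences down to -2.87 and a median of -0.07. B-lineage, macrophage and T cell markers each held 1 gene at least 1.5-fold lower, where 2.71% of all genes were. The summed level of these markers cannot be formed from baseline-relative values, and their part in the results below was not tested. Macrophage, T cell, erythroid and fibroblast markers had medians of -0.002, 0.08, -0.17 and -0.002.

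The promoters below are shown for the translation factor genes that were at least 1.5-fold apart between the arrays and hold the E-box CACGTG upstream of an annotated start, and for Eif3f, a gene on the lower side that holds both the E-box and a pyrimidine-rich start. The E-box is the sequence bound by MYC with MAX and by related factors, and reads the same on both strands. Each run holds the 250 bases before a RefSeq start (GRCm38.p6), 5′ to 3′ on the gene's strand, with the E-box in capitals. The Eif4e run is at chr3:138527018-138527267 on the + strand, that of Eif5a at chr11:69921387-69921636 on the - strand, that of Eef2k at chr7:120842581-120842830 on the + strand and that of Eif3f at chr7:108934165-108934414 on the + strand. Eif4e, Eif5a and Eef2k have 2, 6 and 3 promoters in that table, of which the one with the most E-boxes is printed. Eif4e and Eif5a are 1.5-fold apart only by probe sets with no gene of the same chromosome among their nearest IDs. Probe sets whose nearest IDs include genes of the same chromosome differed by 0.04 and 0.16 for Eif4e and by 0.09 for Eif5a.
Eif4e: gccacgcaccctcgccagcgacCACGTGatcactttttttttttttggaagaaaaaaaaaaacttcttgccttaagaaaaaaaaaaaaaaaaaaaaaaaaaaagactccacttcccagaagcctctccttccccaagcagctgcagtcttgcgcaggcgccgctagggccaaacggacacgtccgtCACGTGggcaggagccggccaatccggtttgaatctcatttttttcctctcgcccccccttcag
Eif5a: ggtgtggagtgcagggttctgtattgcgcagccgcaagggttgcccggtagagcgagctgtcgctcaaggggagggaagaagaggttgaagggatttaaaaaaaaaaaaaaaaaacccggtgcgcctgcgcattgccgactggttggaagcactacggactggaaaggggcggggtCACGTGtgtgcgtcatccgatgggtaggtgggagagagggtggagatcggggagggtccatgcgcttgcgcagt
Eef2k: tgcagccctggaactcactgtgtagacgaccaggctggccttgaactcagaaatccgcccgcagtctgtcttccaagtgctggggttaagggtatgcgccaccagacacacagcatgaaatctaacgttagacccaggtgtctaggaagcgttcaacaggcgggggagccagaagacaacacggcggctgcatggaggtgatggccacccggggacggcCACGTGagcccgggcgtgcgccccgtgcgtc
Eif3f: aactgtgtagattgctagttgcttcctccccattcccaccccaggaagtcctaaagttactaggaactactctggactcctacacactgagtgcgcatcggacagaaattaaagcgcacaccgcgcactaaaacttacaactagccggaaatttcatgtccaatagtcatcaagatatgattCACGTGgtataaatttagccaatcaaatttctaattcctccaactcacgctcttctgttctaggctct

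As a whole the 57 genes were shifted slightly upward with IL-3. Their median difference was 0.17, against 0.04 over all genes, and 38 of them (66.7%) lay above 0, against 59.8% of all genes. At least 1.5-fold higher with IL-3 were 8 genes (14.0%; background 3.52% of all genes), namely Eif5a, Eif3b, Eef1e1, Eif4e, Eif4a3, Eif1ax, Eif2b5 and Eif2b3. At least 1.5-fold lower was 1 gene, Eef2k (background 2.71%), which was also the only one of the 57 past 2-fold (background 0.657% lower); 0 were 2-fold higher (background 0.441%). All others differed by less than 1.5-fold. Most of the family, 38 genes, fell in the 25% of all genes with the highest mean deposited value, where differences of this size are more common: 12.8% of the genes in that range were at least 1.5-fold higher and 6.68% at least 1.5-fold lower. Among these 38 the shares were 21.1% and 2.63%, with a median difference of 0.32 against 0.11 for all genes of that range. The other 19 genes had a median of 0.01 and none reached 1.5-fold in either direction. The split of 8 higher to 1 lower depended on the scaling: it was 3 to 1 after quantile normalization (Eif5a, Eef1e1 and Eif3b against Eef2k), where 2.41% of all genes were higher and 3.24% lower by that rule. It was 1 to 2 after a trend with the mean value was subtracted by loess (Eef1e1 against Eef2k and Eif3m), where the shares of all genes were 1.79% and 3.70%, so that the counts among the 57 were no longer above the background. After loess subtraction the 8 genes still lay above 0, between 0.26 and 0.61. The median of the 57 stayed above that of all genes in these settings, at 0.16 against 0.02 and 0.12 against 0.004.

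**Figure D1:**
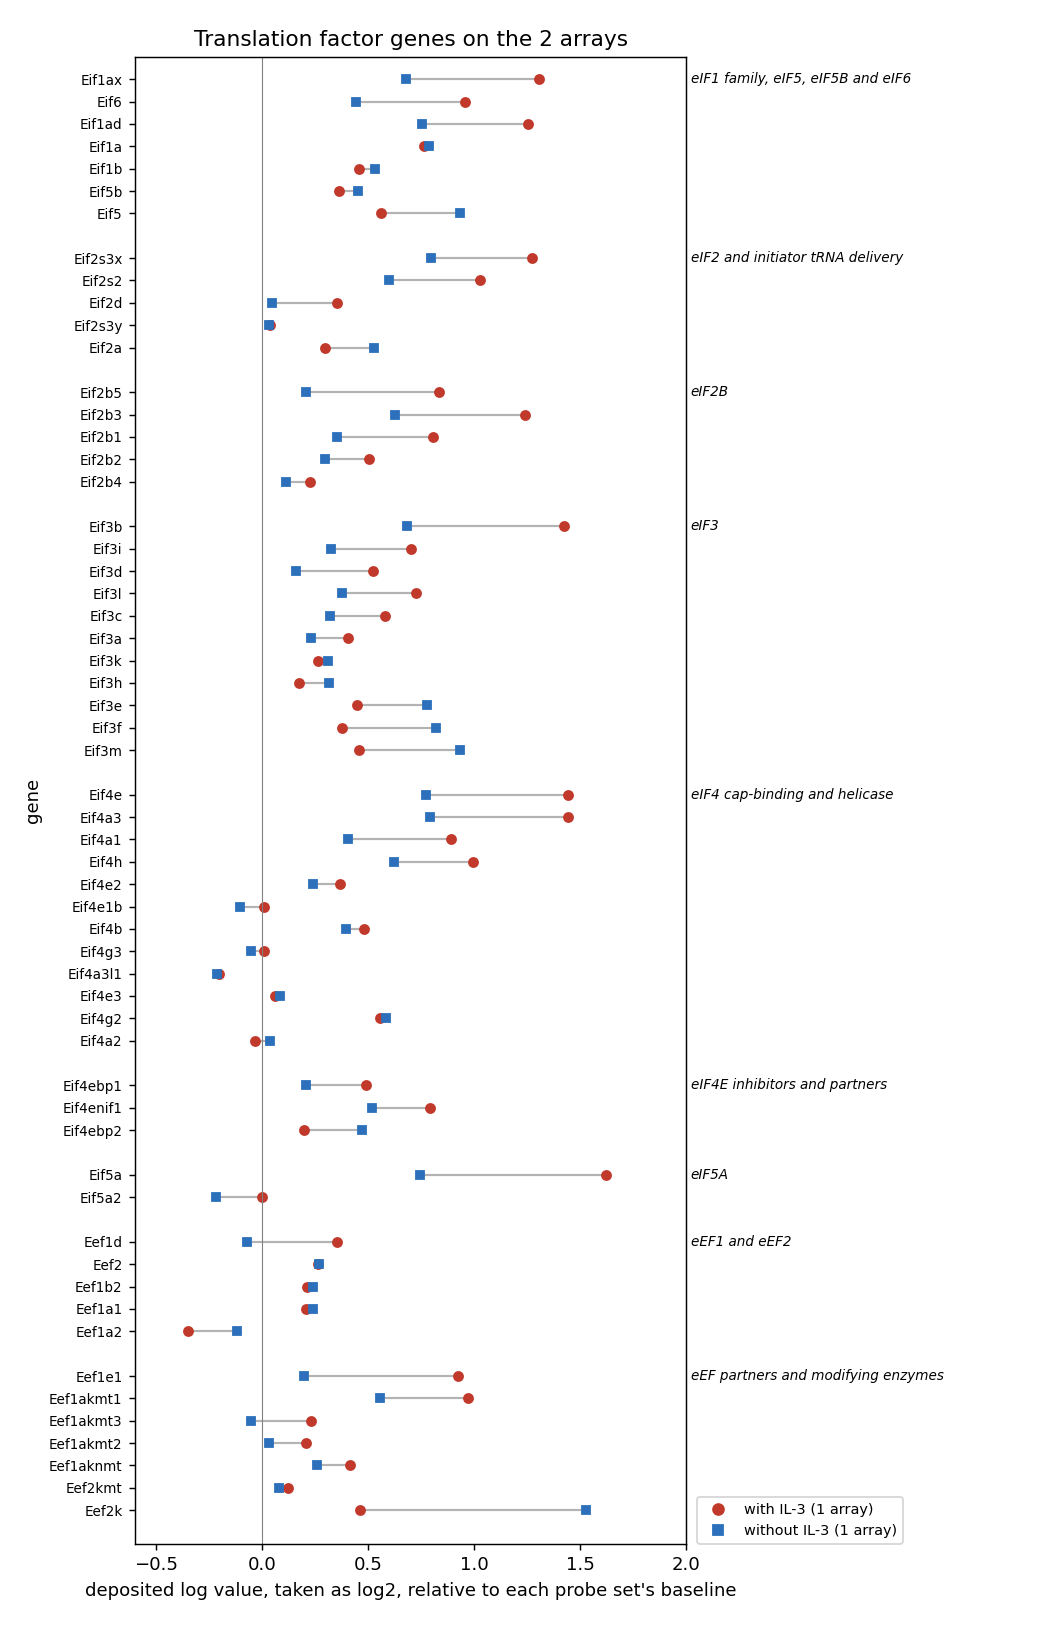
Deposited log value (x axis, taken as log2, relative to each probe set's baseline) of the 57 translation factor genes on the array with IL-3 (red circles) and without IL-3 (blue squares), by group, ordered within each group by the difference; the grey line joins the 2 arrays of a gene. By the probe set used, Eif5a reaches 1.62 with IL-3 against 0.74 without, and its other probe set, not drawn here, is at 0.62 against 0.52. Eef2k is at 0.46 against 1.53.

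The factors of start codon choice and subunit joining split. Eif1ax, which encodes eIF1A, the factor that with eIF1 keeps the scanning ribosome open, had a value of 1.30 with IL-3 and 0.68 without and was 1.54-fold higher. Its paralogue Eif1a differed by -0.02 (0.76 against 0.78), a gap of 0.65 on the log2 scale between the 2 genes. Eif6, which keeps the ribosomal subunits apart and acts in large subunit maturation, was at 0.95 and 0.44 (1.43-fold higher), and Eif1ad, an eIF1A-related gene with a role in small subunit maturation, at 1.25 and 0.75 (1.41-fold higher). Eif5, the GTPase-activating protein of eIF2, went the other way, at 0.56 with IL-3 and 0.93 without (difference -0.38). Eif5b and Eif1b lay within 0.09 of equality. The 7 genes had a median of -0.02, with 3 above 0.

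Of the genes that deliver the initiator tRNA, 2 subunit genes of eIF2, Eif2s3x and Eif2s2, were higher with IL-3, both by less than 1.5-fold; the alpha subunit gene Eif2s1 was not analysed here. Eif2s3x, the X-linked gene of the gamma subunit, was at 1.27 with IL-3 and 0.79 without (1.39-fold higher), whereas its Y-linked paralogue Eif2s3y was at 0.03 on both arrays. Eif2s2, the beta subunit, was at 1.03 and 0.60 (1.35-fold higher) by the probe set used and at 0.99 and 0.25 (1.67-fold higher) by its second probe set. Eif2d, an alternative tRNA-delivery factor, differed by 0.31, and Eif2a, another such factor that is no subunit of eIF2, by -0.23 (0.29 against 0.53).

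All 5 subunit genes of eIF2B, the exchange factor, were higher with IL-3, with a median difference of 0.45. Eif2b5, the catalytic epsilon subunit, was at 0.83 with IL-3 and 0.21 without (1.54-fold higher). Eif2b3, the gamma subunit that pairs with epsilon, was at 1.24 and 0.63 (1.53-fold higher). The alpha subunit gene Eif2b1 was 1.37-fold higher (0.80 against 0.35). The beta and delta subunit genes, Eif2b2 and Eif2b4, differed least, by 0.21 and 0.11. All 5 stayed above 0 after median centring, quantile normalization and loess subtraction, with medians of 0.44, 0.38 and 0.32.

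The 11 measured subunits of eIF3, the scaffold that binds the small subunit, fell on both sides of 0. Eif3b, the core subunit, was at 1.42 with IL-3 and 0.68 without and was 1.67-fold higher. Eif3i, which binds Eif3b in the core, differed by 0.38, Eif3d, a subunit that can bind the cap, by 0.37, Eif3l by 0.35, Eif3c by 0.26 and Eif3a by 0.17. In contrast, Eif3m was at 0.46 with IL-3 and 0.93 without (difference -0.48), Eif3f at 0.38 and 0.82 (-0.44) and Eif3e at 0.45 and 0.78 (-0.33). Eif3h and Eif3k differed by -0.14 and -0.05. The lower members e, f, h, k and m had a median of -0.33. The higher members a, b, c, d, i and l had a median of 0.36. These sets were formed after the values were seen, by the sign of the same differences, so their medians lie on opposite sides by construction. No member of either set crossed 0 under median centring, quantile normalization or loess subtraction. Eif3m is uncertain, because its second probe set differed by 0.12 (0.66 against 0.54). None of the nearest IDs of that second probe set named a gene of the same chromosome, whereas those of the probe set used did. All 5 of the lower members encode PCI or MPN domain subunits; Eif3a, Eif3c and Eif3l on the higher side encode PCI subunits too.

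**Figure D2:**
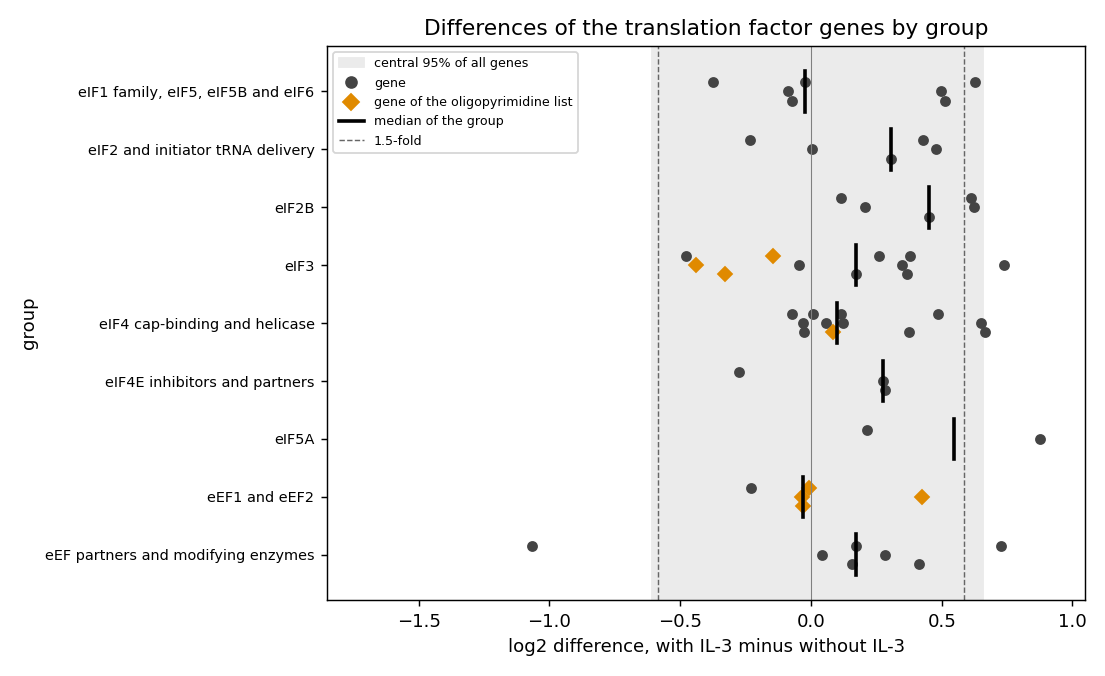
Difference between the arrays (x axis, log2, with IL-3 minus without) for each of the 57 genes (points) by group, with the group median (bar), the genes of the oligopyrimidine list as orange diamonds, 1.5-fold as dashed lines and the central 95% of all genes (-0.61 to 0.66) shaded. All 5 eIF2B genes lie right of 0. Of the 5 eEF1 and eEF2 genes 4 lie left of 0, but Eef1a1, Eef1b2 and Eef2 are nearly at 0 (-0.03, -0.03 and -0.01).

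By the probe sets used, the largest differences among the cap-binding and helicase genes were those of Eif4e, Eif4a3 and Eif4a1. Eif4e, the cap-binding protein, was at 1.44 with IL-3 and 0.77 without and was 1.59-fold higher by the probe set used. The paralogues Eif4e2, known as a repressor of translation, and Eif4e3 differed by 0.12 and -0.03. Their gaps to that value of Eif4e were 0.54 and 0.69. The Eif4e probe sets whose nearest IDs include genes of the same chromosome differed by only 0.04 and 0.16, so these gaps rest on the probe set used. Eif4a3, a helicase of the exon junction complex, was at 1.44 and 0.79 (1.57-fold higher). Eif4a1, the main helicase of initiation, was at 0.89 and 0.40 (1.40-fold higher), whereas its close paralogue Eif4a2 was at -0.04 and 0.04 (difference -0.07). The helicase cofactor Eif4h was 1.30-fold higher (0.99 against 0.62) and the related cofactor Eif4b differed by 0.09. The scaffold genes measured, Eif4g2 and Eif4g3, differed by -0.03 and 0.06. Eif4e1b, an oocyte form, and Eif4a3l1, a copy of Eif4a3, differed by 0.11 and 0.01. Probe sets that name both Eif4a3 and Eif4a3l1 are not counted among the 57 genes; these 2 probe sets differed by 0.54 and 0.57, close to Eif4a3.

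The inhibitors of eIF4E went in opposite directions. Eif4ebp1, which encodes 4E-BP1, was at 0.49 with IL-3 and 0.21 without (1.22-fold higher), and Eif4ebp2, which encodes 4E-BP2, at 0.20 and 0.47 (1.21-fold lower), a gap of 0.56 on the log2 scale. Eif4enif1, which carries eIF4E into the nucleus and to processing bodies, was 1.21-fold higher (0.79 against 0.52). Each of these differences was below 1.5-fold.

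In elongation, the core factors were nearly equal on the arrays. Eef1a1, which delivers aminoacyl-tRNA, was at 0.20 with IL-3 and 0.24 without, Eef1b2, a subunit of its exchange factor, at 0.21 and 0.24, and Eef2, the translocase, at 0.26 and 0.27. These differences, of -0.03, -0.03 and -0.01, were smaller than the spread between probe sets of the same gene. Eef1d, another exchange subunit, was 1.34-fold higher (0.35 against -0.07), and Eef1a2, the form of muscle and neurons, differed by -0.23 (-0.35 against -0.12). By the probe sets used, the largest difference higher with IL-3 of all 57 genes was that of Eif5a. It was at 1.62 with IL-3 and 0.74 without (1.84-fold higher). The Eif5a probe set whose nearest IDs include genes of the same chromosome differed by only 0.09 (0.62 against 0.52). The paralogue Eif5a2 was at -0.004 and -0.22 (1.16-fold higher), a larger difference than that 0.09.

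The largest difference of the family in size was that of the kinase that restrains elongation. Eef2k, which phosphorylates and inactivates eEF2, was at 0.46 with IL-3 and 1.53 without, 2.09-fold lower with IL-3, and its second probe set was at -0.19 and 0.59, 1.72-fold lower. Only 0.572% of all genes had a lower difference than Eef2k. In the same group, Eef1e1, a scaffold protein of the multi-tRNA synthetase complex, was at 0.92 and 0.20 (1.65-fold higher). Of the methyltransferases of eEF1A, Eef1akmt1 was 1.33-fold higher (0.97 against 0.56), and Eef1akmt3, Eef1akmt2 and Eef1aknmt differed by 0.28, 0.17 and 0.16. The eEF2 methyltransferase gene Eef2kmt differed by 0.04.

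Some of these values depend on which probe set stands for the gene. The rule takes the probe set with the highest mean, and 8 genes had more than 1. Probe set IDs on this array follow the genome: for 99.9% of the 18857 genes with 1 probe set and a chromosome in RefSeq, at least 1 of the 20 probe sets with the nearest IDs named a gene of the same chromosome. The probe sets used for Eif5a, Eif4e, Eif4a1, Eif2s2 and Eif4e1b had 0 such neighbours among 20, while a further probe set of each of these genes lay among neighbours of its own chromosome. Whether these probe sets lie on copies of the genes was not tested. Below, a probe set at its own place is one whose nearest IDs include a gene of the same chromosome. Its position at the gene was not tested. By the probe set at its own place, Eif5a was at 0.62 with IL-3 and 0.52 without (1.07-fold higher) and Eif4e at 0.61 and 0.57 (1.03-fold higher), so that neither reached 1.5-fold. Eif4a1 was 1.30-fold higher by the probe set at its own place, close to its other 2 probe sets, and Eif2s2 was 1.67-fold higher, so that it passed 1.5-fold. With probe sets at their own place throughout, 7 of the 57 genes were at least 1.5-fold higher and 1 lower. The median difference of the 57 was 0.12. Of all genes in this setting, 3.52% were higher and 2.71% lower by that rule, with a median of 0.04. The setting was chosen after the values were seen. The used probe sets of Eif3m and Eef2k lay at their own place.

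**Figure D3:**
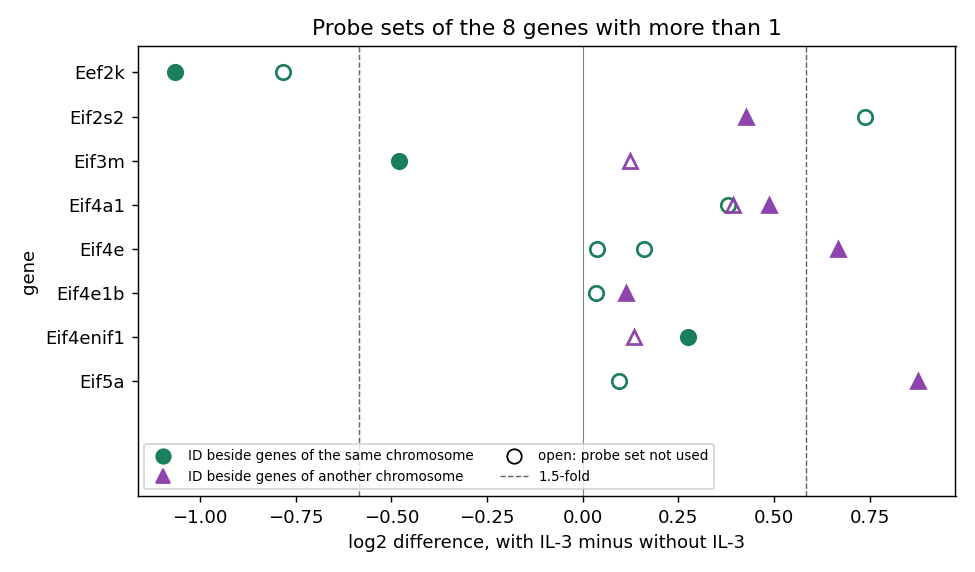
Difference (x axis, log2, with IL-3 minus without) of each probe set of the 8 translation factor genes that have more than 1; filled symbols are the probe sets used, green circles those whose nearest IDs include genes of the same chromosome and purple triangles those whose nearest IDs do not, and dashed lines mark 1.5-fold. For Eif5a and Eif4e the filled triangles lie past 1.5-fold, at 0.88 and 0.67, and the open circles between 0.04 and 0.16.

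A group of translation genes carries a 5′ terminal oligopyrimidine tract, through which mTORC1 controls the translation of the mRNA. Of the 9 factor genes listed for this tract from textbook knowledge, 8 were measured (Eef1a1, Eef1b2, Eef1d, Eef2, Eif3e, Eif3f, Eif3h and Eif4b). They had a median difference of -0.03 with 2 of 8 above 0, whereas the other 49 genes had a median of 0.21 with 36 above 0. The median of the 8 was -0.05 under median centring, -0.02 under quantile normalization and -0.04 under loess subtraction. Each of these was smaller in size than the pooled SD of 0.14 between probe sets of the same gene, so their sign is not read as a result. RefSeq promoters were matched for 44 of the 57 genes. A C followed by 4 pyrimidines at the annotated start was found in 2 of the 44 (4.55%), Eif3f and Eif2s3x, against 2.75% of the 15560 measured genes that have a promoter in the table; annotated starts may lie some bases away from the start in use.

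The E-box was found within the 300 bases from 250 before to 50 after a start in 12 of the 44 genes (27.3%), against 9.52% of the measured genes with a promoter and 8.09% of all 27025 genes in the table. Counted by promoter, it was in 14 of 58 (24.1%) against 8.26% of the promoters of measured genes. Eif4e holds it at 228 and at 64 bases before the start, Eif5a at 74, Eif3f at 68 and Eef2k at 31. The median difference was 0.17 for the 12 with it (7 above 0) and 0.15 for the 32 without it (23 above 0). Among the 12, the values of Eif5a, Eif4e and Eif4a1 came from probe sets not at their own place. These medians were not formed with own-place probe sets, so their closeness is not read as a result. It was found in Eif4a1 and Eif4h, which were higher with IL-3, in Eef2k and Eif3f, which were lower, and in Eif5a and Eif4e, whose differences of 0.88 and 0.67 were 0.09 and 0.04 by the probe sets at their own place. The amino acid response element TGATGNAA, searched on both strands, was in 2 genes (Eef2k and Eif2s3x), 4.55% against 3.62% of the measured genes.

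Around the factors, 61 of 64 other genes of translation were measured, of which 38 were higher with IL-3 and 23 lower, with a median of 0.14. At least 1.5-fold higher were 5 of them (8.20%, against 3.52% of all genes). At least 1.5-fold lower were 2 (3.28%, against 2.71%, a share near the background). Of all genes in the range of highest mean deposited value described above, 12.8% were higher and 6.68% lower by that rule. The 61 genes were not compared with genes of similar mean value, so the 8.20% is not read as an excess. Among the regulators of eIF2, the kinase genes Eif2ak1, Eif2ak2, Eif2ak3 and Eif2ak4 differed by 0.04, -0.11, 0.10 and -0.06. Ppp1r15a, which encodes GADD34, the stress-induced subunit of the phosphatase that restores eIF2, was at -0.19 with IL-3 and 0.93 without and was 2.18-fold lower, whereas its constitutive counterpart Ppp1r15b differed by -0.11. Impact, an inhibitor of the kinase GCN2, was 1.61-fold lower (-0.53 against 0.16), and Bzw2, an eIF5-like protein that restrains start codon choice, was 1.68-fold higher (1.30 against 0.55). The median of the 11 genes in this list was 0.04.

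Abce1, which splits ribosomes after termination, was at 1.65 with IL-3 and 0.76 without, 1.86-fold higher, and Gspt1, the release factor eRF3a, at 1.57 and 0.93, 1.57-fold higher. Dhx29, a helicase for structured leaders, was 1.54-fold higher (0.99 against 0.37). Tufm, the mitochondrial elongation factor Tu, was 1.71-fold higher (1.31 against 0.54), and its probe set at its own place differed by 0.72. The lists of poly(A) binding and scanning, of release and rescue, and of mitochondrial factors had medians of 0.17, 0.22 and 0.12, with 2, 1 and 1 genes at least 1.5-fold higher and 0 lower. The enzymes that modify eIF5A and eEF2, together with selenocysteine factors, had 7 of 9 above 0 and a median of 0.34 with 0 past 1.5-fold; Dohh, the hydroxylase that completes hypusine on eIF5A, differed by 0.49 and Dhps, which starts it, by 0.30. In the mTORC1 list, 9 of 15 genes were above 0 with a median of 0.11 and 0 past 1.5-fold. Pdcd4, an inhibitor of eIF4A, had the lowest value of that list, at 0.54 with IL-3 and 1.09 without (difference -0.56), and Rps6kb2, a kinase of ribosomal protein S6, the highest (0.43).

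**Figure D4:**
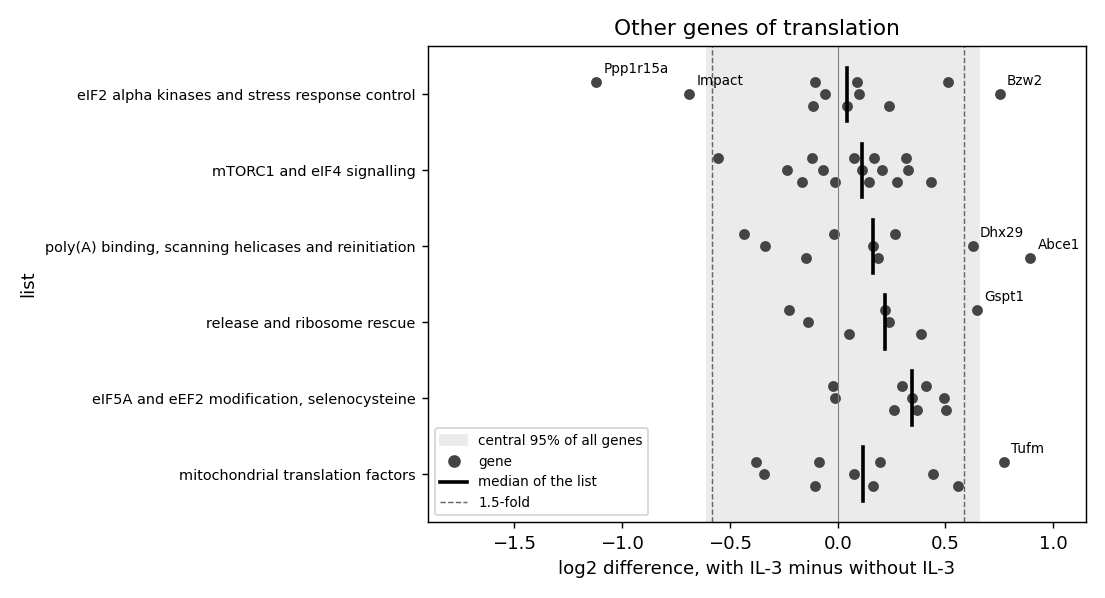
Difference (x axis, log2, with IL-3 minus without) of 61 other translation genes by list (points), with the list median (bar), 1.5-fold as dashed lines and the central 95% of all genes shaded; genes past 1.5-fold are named. Ppp1r15a and Impact lie past 1.5-fold on the lower side, and Abce1, Tufm, Bzw2, Gspt1 and Dhx29 on the higher side.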

How the data were processed

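The authors deposited a table of log values, with 28815 probe sets on each of 2 arrays; per the labels' protocols, RNA was labelled with the Ambion and Affymetrix whole-transcript kits. The sources used here do not state the summarisation, normalization, log base or baseline. The deposited values were taken as log2; in 6.11% of probe sets the 2 arrays were equal and opposite (sum within 1e-05 of 0), which shows a per-probe-set baseline. Gene names came from the platform annotation: 21780 had 1 symbol and 1605 several, and the latter were left out. All 57 symbols matched RefSeq (GRCm38.p6) by gene ID; 13 had no promoter matched. Eif2s1, Eif3g, Eif4g1, Eif1, Eef1g and Eif4ebp3 were not analysed here, having no probe set of their own name alone; probe sets naming Eif3j1 and Eif3j2 together differed by 0.14 and 0.26. Values of genes with near-identical copies are uncertain; which probe sets match copies was not tested.

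With 1 array per group no test was run; genes were counted at 1.5-fold and 2-fold. Named genes are those past 1.5-fold, the extremes of each group and paralogue pairs; others were added to complete a group. Members, groups and lists were chosen with earlier results of these data known. Alternatives were median centring, quantile normalization, a loess trend (span 0.3), the mean over probe sets, natural logs, a filter at each array's median and, added later, probe sets at their own place. Functions were tested on simulated data. Python 3.11.15, pandas 2.3.3, scipy 1.17.1 and statsmodels 0.14.6 were used.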

Additional observations from a re-analysis of the deposited data

How the results depend on the processing

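No paired analysis was possible because each condition has 1 array. The count of translation factor genes at least 1.5-fold higher, 8 as reported, was 3 after quantile normalization, 1 after loess subtraction and 16 if the values are natural logs, where 2.41%, 1.79% and 7.40% of all genes passed (3.52% as reported). The count at least 1.5-fold lower, 1 as reported, was 2 after loess subtraction and 3 with natural logs, where 3.70% and 5.42% of all genes passed. Both counts stayed within 1.5 times of the reported ones under median centring (8 and 1) and the mean over all probe sets (6 and 1). The same held for the filter at each array's median (8 and 1, with 49 genes left) and probe sets at their own place (7 and 1). Of all genes, 3.21%, 3.43%, 7.40% and 3.52% were at least 1.5-fold higher in these settings, and 2.83%, 2.60%, 3.33% and 2.71% lower. The 8 under the filter thus stand against a higher background than the 8 as reported. The median difference lay between 0.12 and 0.25 and the share of genes above 0 between 63.2% and 66.7% over all 7 alternatives (66.7% as reported). Over all genes that share ran from 51.1% after loess subtraction to 60.0% under the filter at each array's median (59.8% as reported). The median over all genes ran from 0.004 after loess subtraction to 0.06 with natural logs. Of single genes, 1 or 2 changed sign under the 3 scalings, none with a difference above 0.01 in size. Sizes were less stable. After loess subtraction 21 gene differences and group medians moved by at least the probe-set SD of 0.14 and 45 did not. With natural logs 27 moved and 39 did not, and after quantile normalization 4 moved and 62 did not. After loess subtraction, Eif3b went from 0.74 to 0.38 and Eif4a3 from 0.65 to 0.26. Eef2k was lower in every alternative; its size was 1.90-fold with the mean over its probe sets. The number of arrays limits the precision, and turning the labels would turn every direction.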
